A study of Mus musculus with 38 samples.

Results

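Genes that drive DNA replication and cell division were followed across 5 mouse CD8 T cell clones in a dormant and an activated state. The set was chosen by gene symbol and lists 44 cell cycle and DNA replication genes. A probe set carrying that symbol alone was found for 43 of them, out of 19938 distinct symbols measured in this way. Ccnb1, the gene of the mitotic cyclin B1, had none and has no value here. The measured genes were ordered by role: 6 G1 cyclins and E2F factors, 14 licensing and replication fork genes, 3 genes of nucleotide supply, 10 S to M cyclins and kinases, and 10 chromosome, kinetochore and spindle genes.

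Activated cells had been kept for 14 h on immobilised anti-CD3 antibody (145-2c11, coated at 0.5 ug/ml), which binds the T cell receptor complex, and dormant cells had not. The labels give the phenotype CD8IL13+ to clones sAg1 and sAg3, which the series design names CD8γ13. They give CD8IL13- to 8uvmo-2 and 8uvmo-3, and allo CD8 to CD8bm1. Below they are called IL13+, IL13-negative and alloreactive. There were 3 arrays of dormant sAg1, 3 of dormant sAg3, and 4 of each of the remaining 8 groups. Mouse strain, age and treatments shared by all the cells are not given in the labels beyond these terms. Each group is 1 clone in 1 state, so a kind of cell stands on 2 clones (IL13+, IL13-negative) or on 1 (alloreactive). Nothing in the labels tells whether the arrays of a group had separate cultures, so p-values measure only how far these samples spread, and that spread may be technical.

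A resting T cell leaves the cell cycle and keeps the transcripts of replication and mitosis low. Signals from the T cell receptor and from cytokines raise D cyclins and then E cyclins, which with their kinases inactivate the retinoblastoma protein and free E2F factors. E2F factors switch on genes of licensing (Cdc6, Cdt1 and the Mcm helicase subunits), of the replication fork and of nucleotide supply before and during S phase. Later in the cycle, genes of G2 and mitosis (Ccna2, Ccnb2, Cdk1, Plk1, the kinesins) are switched on through CHR and CCAAT elements. Of these, the CHR is bound by complexes of MuvB with B-Myb and FoxM1. In resting cells the DREAM complex binds the CHR and holds these genes silent.

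Promoter sequence was available in the RefSeq table (mouse build GRCm38.p6, 250 bases before to 50 after each start) for 37 of the 43 genes, in 40 records. The letters searched on both strands were TTTCCCGC, TTTGGCGC, TTTCGCGC and TTTGCCGC for E2F, TTTGAA and TTCGAA for the CHR, and CCAAT for the CCAAT box. E2F letters on opposite strands can overlap each other, as they do in Mcm5 and Mcm6. The CHR letters were found in 7 of 8 promoters of S to M cyclins and kinases and in 9 of 11 promoters of chromosome, kinetochore and spindle genes. Together these were 84.2% of the 19 promoters of those 2 roles, against 19% of the 21 promoters of the other 3 roles and 19.2% of all 32851 promoters in the table. CHR and CCAAT letters occurred together in 15 of the 19 promoters (78.9%), against 7.52% of all promoters. The E2F letters were found in 7 of 13 promoters of licensing and replication fork genes (53.8%), in 1 of the 19, and in 2.26% of all promoters. These matches describe letters in a window and were not tested as sites. Shown here are the 180 bases before the start of 3 mitotic genes and 3 licensing genes that held the letters of their role and are described below. Capitals mark E2F, CHR and CCAAT letters on either strand, and each sequence runs 5′ to 3′ on the gene's strand.
Ccnb2, chr9:70421555-70421734, minus strand: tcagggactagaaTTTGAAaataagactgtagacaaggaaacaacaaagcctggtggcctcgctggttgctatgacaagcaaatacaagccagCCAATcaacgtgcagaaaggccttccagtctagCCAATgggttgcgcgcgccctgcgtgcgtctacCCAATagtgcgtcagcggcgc
Cdk1, chr10:69352913-69353092, minus strand: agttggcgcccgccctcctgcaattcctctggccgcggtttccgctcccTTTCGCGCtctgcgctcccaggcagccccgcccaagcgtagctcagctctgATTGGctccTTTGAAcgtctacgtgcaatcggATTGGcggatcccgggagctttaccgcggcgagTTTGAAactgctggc
Cdc20, chr4:118437344-118437523, minus strand: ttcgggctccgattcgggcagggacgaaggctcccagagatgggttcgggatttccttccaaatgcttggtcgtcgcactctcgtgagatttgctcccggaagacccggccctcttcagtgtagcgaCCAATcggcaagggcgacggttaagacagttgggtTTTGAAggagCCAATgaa
Mcm5, chr8:75109329-75109508, plus strand: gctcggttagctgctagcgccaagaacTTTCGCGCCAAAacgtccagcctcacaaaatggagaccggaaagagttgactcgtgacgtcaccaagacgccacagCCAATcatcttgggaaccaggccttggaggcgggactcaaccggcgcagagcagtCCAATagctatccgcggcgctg
Mcm6, chr1:128359706-128359885, minus strand: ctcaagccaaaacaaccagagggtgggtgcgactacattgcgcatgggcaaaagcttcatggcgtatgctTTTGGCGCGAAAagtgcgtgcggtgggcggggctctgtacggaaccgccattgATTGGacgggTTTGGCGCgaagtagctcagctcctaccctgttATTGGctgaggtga
Cdc6, chr11:98907971-98908150, plus strand: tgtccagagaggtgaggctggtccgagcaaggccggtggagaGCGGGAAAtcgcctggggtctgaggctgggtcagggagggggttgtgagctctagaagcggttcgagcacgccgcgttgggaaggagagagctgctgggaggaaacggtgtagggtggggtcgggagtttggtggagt

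In Cdk1 and Cdc20 a CHR match lay within 20 bases of the start, its first base at position -15 in Cdk1 and at -18 in Cdc20. Ccnb2 had one at position 5, after the start and so outside the printed bases, besides that at -167. Ccnb2, Cdk1, Cdc20, Mcm5 and Mcm6 held CCAAT letters in the printed window, and Cdc6 held none in the whole 300 bases.

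Of 10 listed T cell markers 9 were measured, and 8 reached a group mean of 9. Cd3e had group means of 12.50 to 13.44 and Cd8a of 11.22 to 12.83 on the log2 scale, but Cd2 ran from 5.59 in dormant CD8bm1 to 10.29 in dormant 8uvmo-3, and Cd5 reached at most 7.06. Of the other marker lists, 3 of 13 macrophage and dendritic cell genes, 1 of 6 B cell genes, 2 of 4 erythroid genes, 1 of 6 granulocyte genes and 3 of 6 stromal genes reached a group mean of 7. The medians of the macrophage and dendritic cell list ran from 5.79 to 6.76 on activated arrays and from 5.36 to 5.95 on dormant arrays, and their part in the results was not tested. Single markers of those lists were brighter than the medians: Itgax had a group mean of up to 11.37 (activated sAg3), Cd68 of up to 10.33 (dormant 8uvmo-2), Ebf1 of up to 9.38 (activated sAg1) and Lyz2 of up to 9.26 (dormant sAg1). The whole activated arrays were brighter, with array medians of 7.01 to 7.09 against 6.58 to 6.70 on dormant arrays. The difference between states over all 23410 probe sets tested had a median of 0.35, and it depended on level: 0.51 for probe sets with a mean under 7, but -0.04 for those over 9. The median of the member genes is given beside it below, and counts after centring each array on its own median are given beside the counts from the deposited values. Dormant 8uvmo-2 was split: replicates 1 and 3 stood apart from replicates 2 and 4. The main counts that include this group are given with and without replicates 1 and 3. In the fit each probe set has 1 spread shared by all groups, so the split also adds to the errors of comparisons without this group. Differences in those comparisons may be missed for that reason, and their counts without both replicates are not given here. A fit over only the arrays compared is among the alternatives below.

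Within dormant 8uvmo-2 the cell cycle genes were high on a pair of arrays and low on the other pair. The median of the 43 genes was 10.52 and 10.51 on replicates 1 and 3, and 8.47 and 8.07 on replicates 2 and 4. In 38 of the 43 genes both arrays 1 and 3 lay at least 1 log2 unit above both arrays 2 and 4, against 1.63% of all probe sets tested. The opposite split, with arrays 2 and 4 at least 1 unit above, held for 0 of the 43 and for 0.248% of all probe sets. The gap, taken between the lower of arrays 1 and 3 and the higher of arrays 2 and 4, had a median of 1.94 over the member genes.

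Rrm2, which encodes the regulated subunit of ribonucleotide reductase, had the largest gap, 2.74. Its values were 12.01 and 12.15 on replicates 1 and 3, and 9.27 and 8.20 on replicates 2 and 4. Mcm5, a subunit of the replicative helicase, stood at 10.52 and 10.67 on replicates 1 and 3, and at 7.83 and 7.34 on replicates 2 and 4. The mitotic checkpoint kinase gene Bub1 read 10.18 and 10.39 on replicates 1 and 3, against 7.78 and 6.74 on replicates 2 and 4. Thus replication and mitotic genes were high together on the same 2 arrays. Gaps of at least 1 were seen in 13 of 14 licensing and fork genes, 3 of 3 nucleotide genes, 10 of 10 S to M genes and 9 of 10 spindle genes, but in 3 of 6 G1 cyclins and E2F factors.

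The 5 genes without such a gap were Ccnd2, Ccnd3, Prc1, Cdt1 and E2f1. Ccnd2, a D cyclin of lymphocytes, was at 12.58 and 12.19 on replicates 1 and 3 and at 12.31 and 12.46 on replicates 2 and 4, so its arrays overlapped. Ccnd3, the other D cyclin among the member genes, had a gap of 0.03, and Prc1, which bundles microtubules of the central spindle, had 0.22. The gaps of the licensing factor gene Cdt1 (0.59) and of E2f1 (0.75) were also below 1. No difference between the pairs of arrays was tested, because the pairs were told apart by their values. Outside the member genes, 35 of 36 other mitotic genes and 22 of 29 other replication genes had a gap of at least 1, while 0 of 12 quiescence genes and 2 of 9 inhibitors and pocket proteins had one. No gene of these lists had a gap of at least 1 in the opposite direction. Of the quiescence genes, Foxo3, Tsc22d3, Ccng2, Btg2, Foxo1, Btg1, Tob1 and Klf4 had smaller gaps with arrays 2 and 4 above (0.16 to 0.62). Foxp1 had 0.13 with arrays 1 and 3 above, and Klf2, Slfn2 and Tsc1 overlapped. The inhibitor gene Cdkn1b (0.59) and the D cyclin gene Ccnd1 (0.87) also had arrays 2 and 4 above.

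**Figure D1:**
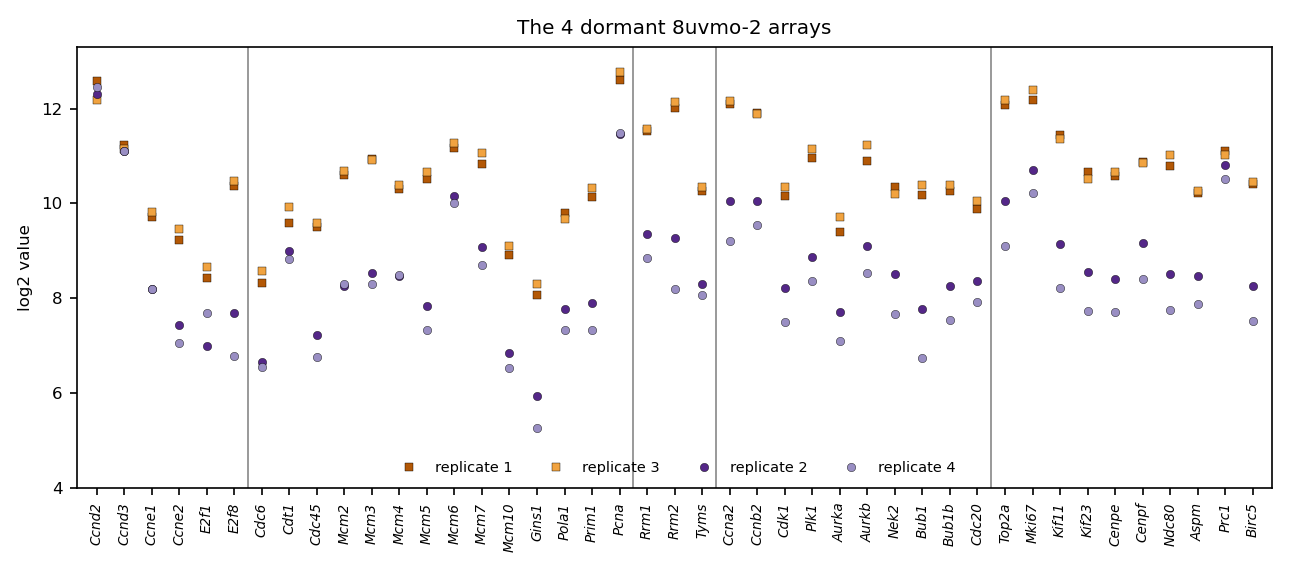
Log2 value of each of the 43 genes on dormant 8uvmo-2 arrays, with replicates 1 and 3 set apart from replicates 2 and 4. In 38 genes both arrays 1 and 3 lie at least 1 log2 unit above both arrays 2 and 4, and Ccnd2, Ccnd3, Prc1, Cdt1 and E2f1 do not.

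The level of the cell cycle genes was described by their median on each array. The median of the 43 genes ran from 7.69 to 9.02 over the 20 activated arrays and from 7.21 to 10.52 over the 18 dormant arrays, and the difference in spread was not tested. Among dormant clones the mean of that median was lowest in sAg1, at 7.46 ± 0.37 (SD, n = 3), followed by sAg3 at 8.26 ± 0.44 (SD, n = 3) and 8uvmo-3 at 8.70 ± 0.39 (SD, n = 4). It was 9.39 ± 1.31 (SD, n = 4) in 8uvmo-2 and highest, 9.71 ± 0.64 (SD, n = 4), in CD8bm1. The arrays of sAg1 (7.21 to 7.89) lay below those of sAg3 (7.97 to 8.76), but every later neighbour in the order overlapped. 8uvmo-3 ran from 8.39 to 9.27, 8uvmo-2 from 8.07 to 10.52 and CD8bm1 from 9.08 to 10.48. Dormant CD8bm1 was uneven too, with replicates 2 and 4 above 1 and 3 in some genes. Rrm1 read 11.28 and 11.88 on replicates 2 and 4, against 10.56 and 10.49 on replicates 1 and 3. Bub1b read 9.98 and 10.46, against 8.68 and 9.29. Ccne1 (9.21 and 9.50, against 9.40 and 8.28) and Ccnd3 did not follow this, and counts by these pairs are not given here.

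After 14 h on antibody the order was sAg3 at 7.88 ± 0.20, 8uvmo-3 at 8.08 ± 0.11, 8uvmo-2 at 8.13 ± 0.37, CD8bm1 at 8.40 ± 0.43 and sAg1 at 8.43 ± 0.47 (mean of the median ± SD, n = 4 each). All neighbours in this order overlapped in their arrays. The clone with the lowest dormant level, sAg1, thus had the highest activated mean. Within activated sAg1, replicate 4 lay lowest (7.79, with the group reaching 8.84), and within activated CD8bm1, replicate 3 lay highest (9.02, with the group starting at 8.06).

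**Figure D2:**
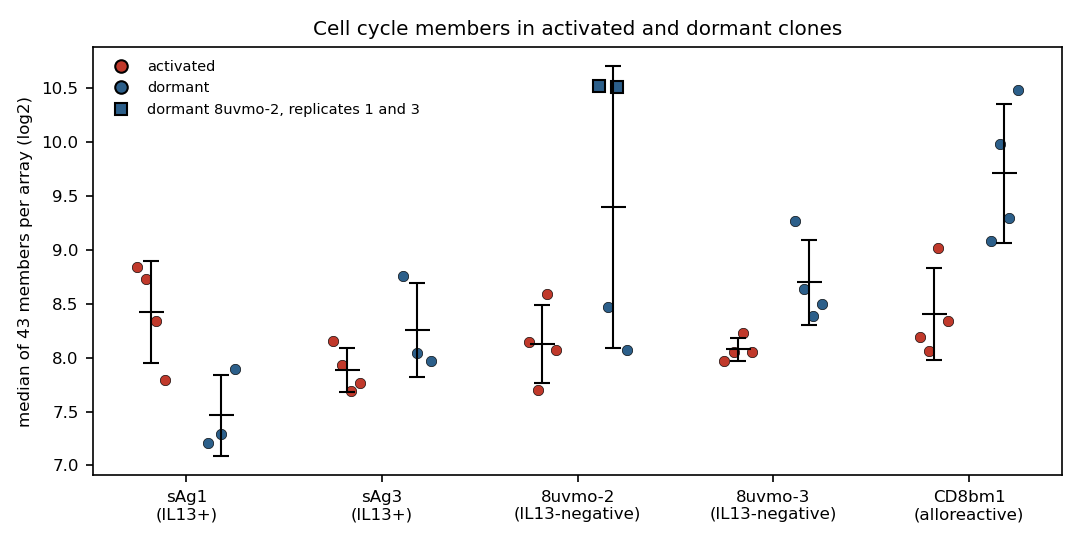
Median log2 value of the 43 cell cycle and replication genes on each array, by clone, activated left of dormant. Points are arrays, squares are dormant 8uvmo-2 replicates 1 and 3, and bars are the mean ± SD of a group. Activated arrays lie between 7.69 and 9.02 and dormant arrays between 7.21 and 10.52.

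**Figure D3:**
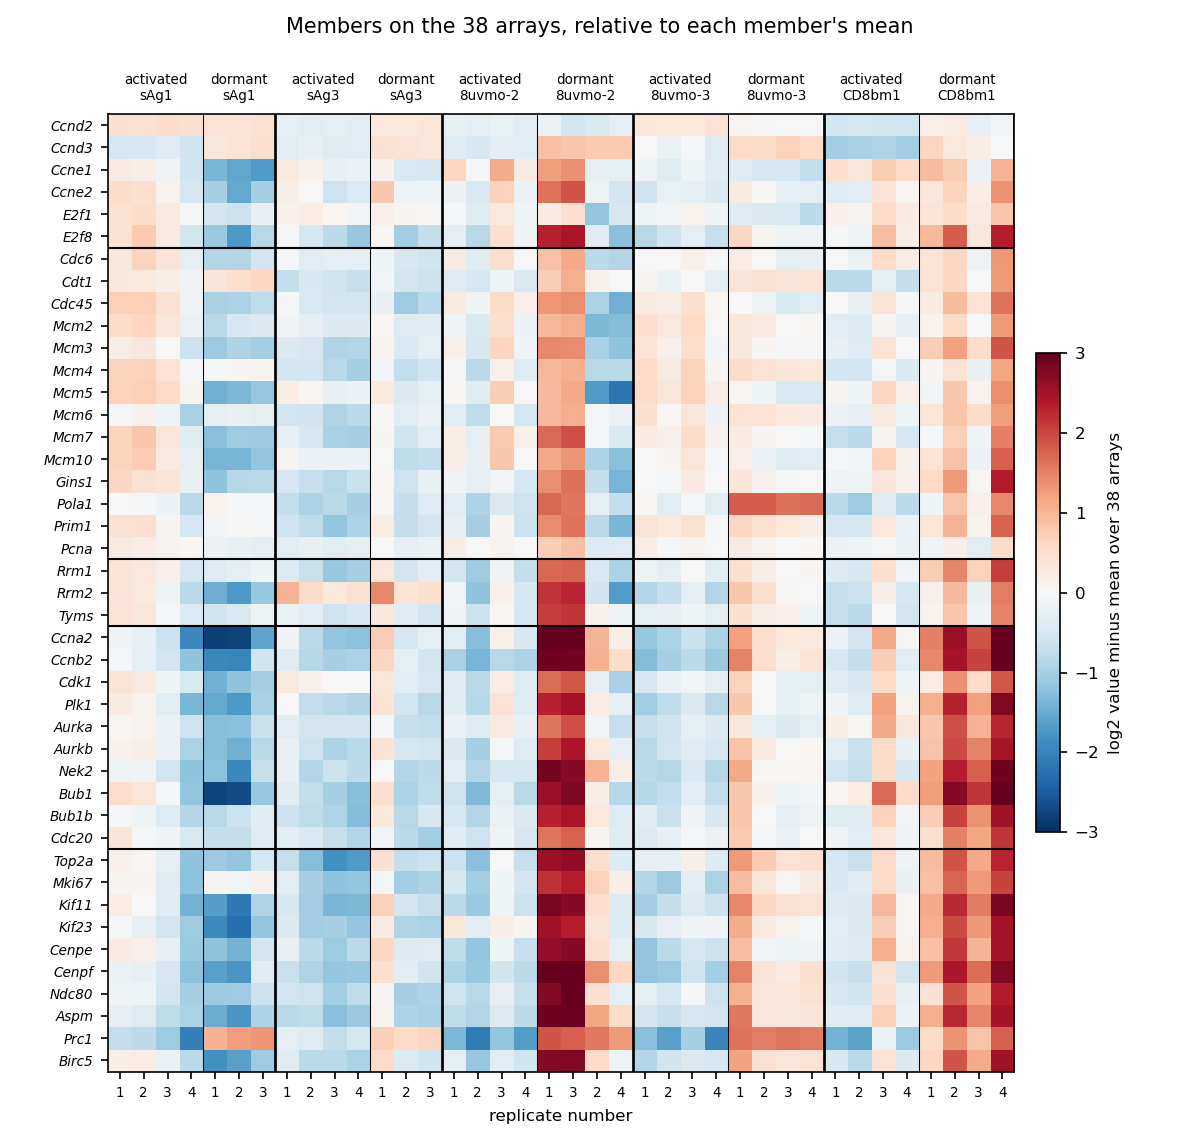
Each gene (rows, grouped by role) on each of the 38 arrays (columns), as the log2 value minus that gene's mean over all arrays. Dormant 8uvmo-2 is drawn in the order replicates 1, 3, 2, 4. Dormant CD8bm1 and dormant 8uvmo-2 replicates 1 and 3 are high over most rows, dormant sAg1 is low, and Ccnd2, Ccnd3 and Prc1 follow other patterns.

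Averaged over the 5 clones, activation lowered a group of mitotic genes and raised none of the 43 past the threshold. A gene was called where limma's test gave a Benjamini-Hochberg adjusted p under 0.05 over all 23410 probe sets and the log2 difference was at least 1. By that rule 9 genes fell, against 1.95% of all probe sets, and 0 rose, against 4.68% (limma; 30 of 43 had an unadjusted p under 0.05, in either direction). The median of the 43 was -0.51. After centring, 19 fell and 0 rose, against 6.13% and 1.19% of all probe sets, and the 9 were among them. Fewer cells in the cycle and less transcript per cell cannot be told apart in RNA of whole cultures. The 9 were Prc1, Cenpf, Ccnb2, Mki67, Aspm, Pola1, Top2a, Kif11 and Ccna2. Without dormant sAg3 replicate 1, dormant 8uvmo-2 replicate 1 or dormant 8uvmo-2 replicate 3 the count was 4 each, and without activated sAg1 replicate 4 it was 5. Without both dormant 8uvmo-2 replicates 1 and 3 it was 3 (Prc1, Cenpf and Ccnb2), against 1.94% of all probe sets. Without replicates 2 and 4 it was 14, against 2.05%, and with the replicate number as a block it was 5.

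By role, 6 of 10 spindle and chromosome genes fell (median -1.03), 2 of 10 S to M genes (median -0.69), 1 of 14 licensing and fork genes (median -0.08), and 0 of 3 nucleotide genes (median -0.51) and 0 of 6 G1 and E2F genes (median -0.15). The single licensing and fork gene called was Pola1, which encodes the catalytic subunit of DNA polymerase alpha. Among genes that were not called, Nek2, a centrosome kinase gene, differed by -0.999 and Ccnd3 by -0.98 (limma adjusted p = 1.17e-21). Mcm5 differed by 0.56, Mcm10, a replication initiation factor gene, by 0.39, and Ccne1, the gene of cyclin E1, by 0.38. Of these, the centred differences were 0.16 for Mcm5 and -0.02 for both Mcm10 and Ccne1, so their sign or size rests on the scaling.

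**Figure D4:**
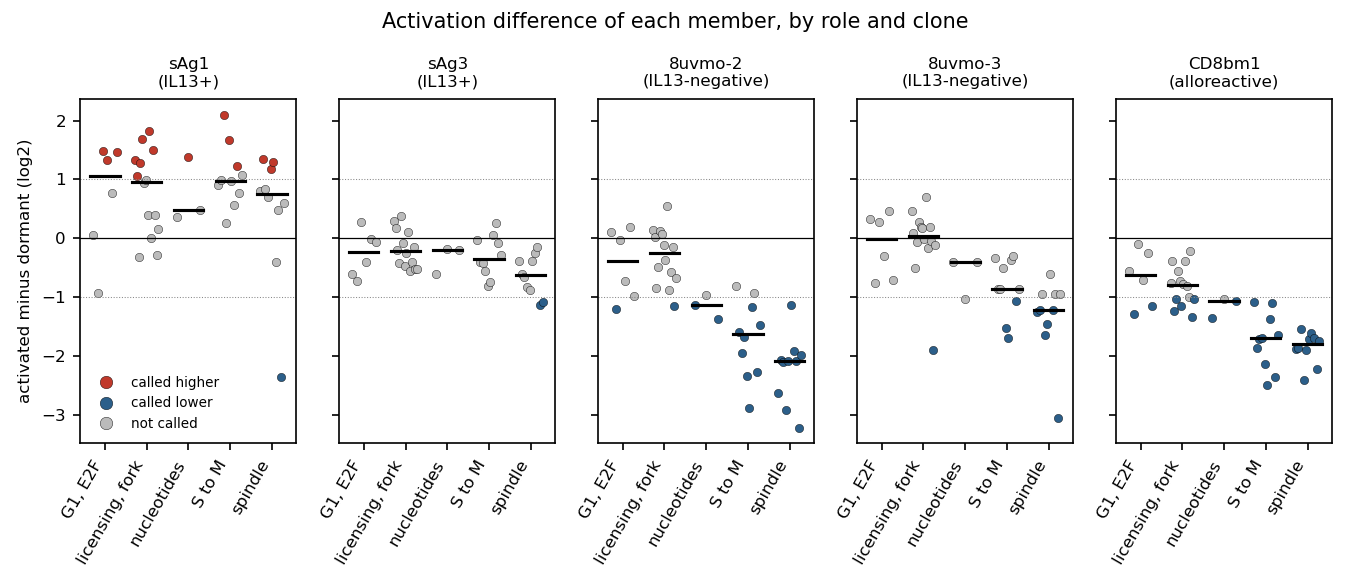
Activated minus dormant log2 difference of each gene, by role and clone. Red points were called higher, blue points called lower and grey points not called, black bars are the role medians and dotted lines mark differences of 1 and -1. In sAg1, 16 genes are called higher, and in CD8bm1, 29 are called lower.

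Prc1 was the only gene of the 43 called lower in all 5 clones, and the share of all probe sets so called is not given here. In sAg1 it read 8.51, 8.44, 8.16 and 7.17 on activated arrays, against 10.28, 10.48 and 10.54 on dormant arrays. In sAg3 it read 8.96, 8.85, 8.52 and 8.69 on activated arrays, against 9.94, 9.83 and 9.88 on dormant arrays. In 8uvmo-2 it read 7.88, 7.12, 8.05 and 7.55 on activated arrays, against 11.11, 10.81, 11.03 and 10.51 on dormant arrays. No activated array reached any dormant array in these 3 clones. In 8uvmo-3, activated arrays stood at 7.97, 7.59, 8.23 and 7.25 and dormant arrays at 10.86, 10.76, 10.83 and 10.78. In CD8bm1, activated arrays stood at 7.81, 7.61, 9.02 and 8.13 and dormant arrays at 9.78, 10.57, 10.09 and 11.02. The groups were again apart. The mean difference was -2.40 (SE 0.12, limma adjusted p = 6.31e-19), the largest of the 43. Unlike most mitotic genes, Prc1 was high in dormant sAg1, the clone with the lowest median.

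Cenpf, which encodes a kinetochore protein of late G2 and mitosis, had a mean difference of -1.42 (SE 0.19, limma adjusted p = 1.41e-08). In 8uvmo-2 it read 6.82, 6.64, 7.16 and 6.98 on activated arrays, against 10.87, 9.16, 10.85 and 8.40 on dormant arrays. In sAg1 it read 7.57, 7.53, 7.27 and 6.54 on activated arrays, against 6.13, 6.03 and 7.40 on dormant arrays. The groups were apart in 8uvmo-2 and overlapped in sAg1, where most activated arrays were higher. Ccnb2, the gene of cyclin B2, differed by -1.37 (SE 0.19, limma adjusted p = 6.71e-08). In CD8bm1 its activated arrays were at 8.47, 8.27, 9.72 and 8.64, against 10.43, 11.49, 11.01 and 12.15 on dormant arrays. In 8uvmo-3 its activated arrays were at 7.68, 8.00, 8.21 and 7.87, against 10.47, 9.51, 9.16 and 9.40 on dormant arrays. In both clones every activated array lay below every dormant one.

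Mki67, the gene of the proliferation antigen Ki-67, fell by 1.08 on the log2 scale (limma adjusted p = 2.44e-07). It read 10.10, 10.10, 9.66 and 8.79 on activated sAg1 arrays, against 10.12, 9.94 and 10.16 on dormant sAg1 arrays, and those overlapped. It read 9.54, 9.66, 10.60 and 9.81 on activated CD8bm1 arrays, against 10.93, 11.78, 11.30 and 12.05 on dormant CD8bm1 arrays, and those did not. Aspm, which organises spindle poles, fell by 1.07, Top2a, which encodes topoisomerase II alpha, fell by 1.03, Kif11, the kinesin that separates spindle poles, fell by 1.03, and Ccna2, the cyclin of S phase and G2, fell by 1.02. The limma adjusted p of these 4 lay between 1.02e-06 and 0.000107. Top2a had a dimmer probe set that differed by 1.06 in the opposite direction, so the value holds for its brightest probe set.

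Pola1 was the replication gene that fell on average, by 1.04 (limma adjusted p = 2.73e-07), and its decrease was steepest in 8uvmo-3. There it read 8.13, 7.75, 8.02 and 7.75 on activated arrays, against 9.88, 9.88, 9.73 and 9.77 on dormant arrays, with a difference of -1.90 (SE 0.34, limma adjusted p = 7.15e-06). In sAg1 it read 8.06, 8.03, 7.89 and 7.26 on activated arrays, against 8.18, 8.03 and 8.05 on dormant arrays. The groups were far apart in 8uvmo-3 and overlapped in sAg1. Pcna, the sliding clamp of the fork, was bright throughout: it ranged from 11.52 to 12.13 over activated arrays and was called in no clone.

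The D cyclins among the member genes took their own course. Ccnd3 read 9.29, 9.34, 9.42 and 9.27 on activated CD8bm1 arrays, against 10.96, 10.64, 10.52 and 10.31 on dormant ones, with a difference of -1.28 (SE 0.09, limma adjusted p = 2.41e-14). It read 9.80, 9.81, 9.93 and 9.71 on activated sAg1 arrays, against 10.65, 10.73 and 10.85 on dormant ones, a difference of -0.93. Ccnd3 was lower in all 5 clones by direction, as were Cdt1, Pola1, Mki67 and Prc1, and it was called in 8uvmo-2 and CD8bm1. Ccnd2 stayed among the brightest genes: it read 13.23, 13.21, 13.29 and 13.23 on activated sAg1 arrays, against 13.18, 13.14 and 13.21 on dormant ones. In CD8bm1 it read 12.18, 12.28, 12.21 and 12.17 on activated arrays, against 12.90, 12.97, 12.50 and 12.67 on dormant ones. So Ccnd2 overlapped between states in sAg1 and lay apart in CD8bm1, and it was called in no clone. E2f1, Mcm2, Mcm4, Mcm6 and Pcna were also called in no clone.

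In further genes the dormant arrays spanned a wider range than the activated ones. Plk1, a kinase of mitotic entry, ranged from 7.28 to 9.87 over the 20 activated arrays, against 6.92 to 11.44 over the 18 dormant arrays. Birc5 ranged from 6.55 to 8.08 over activated arrays, against 5.87 to 10.46 over dormant arrays. Cenpe, the gene of a kinetochore motor protein, ranged from 6.76 to 9.0 over activated arrays, against 6.52 to 10.67 over dormant arrays. In all 3 the lowest dormant array belonged to sAg1 and the highest to CD8bm1 or to 8uvmo-2 replicate 3. Cdc20, the activator of the anaphase-promoting complex, ranged from 7.41 to 8.68 over activated arrays, against 7.27 to 10.42 over dormant arrays. Ccne2, the gene of cyclin E2, ranged from 6.97 to 8.28 over activated arrays, against 6.05 to 9.47 over dormant arrays. E2f8 ranged from 6.9 to 8.96 over activated arrays, against 6.33 to 10.48 over dormant arrays. Plk1, Cdc20 and Cenpe were each called lower in 8uvmo-2 and CD8bm1 and in no other clone. So was Rrm1, which encodes the large subunit of ribonucleotide reductase (-1.13 in 8uvmo-2 and -1.36 in CD8bm1), while Prim1, the primase subunit gene, was called in CD8bm1 alone (-1.03), as was Cdt1 (-1.23).

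In sAg1 some replication and mitotic genes rose with activation. Of the 43 genes 16 did so, against 7.22% of all probe sets, and only Prc1 fell, against 3.62%. The median difference was 0.90, where the median of all probe sets in this clone was 0.375. After centring, 6 rose (Bub1, Mcm5, Mcm10, Ccna2, Mcm7 and Ccne1), against 2.27% of all probe sets, and 2 fell (Prc1 and Ccnd3), against 8.06%. After quantile normalization 13 rose and 1 fell. Centring takes the same amount from dim and bright probe sets, while the median over all probe sets depended on level. In this clone it was 0.50 for means under 7 and 0.33 for means of 7 to 8. It was 0.13 for means of 8 to 9 and -0.01 for those over 9. Of the genes that rose in the deposited values, Gins1 had a mean under 7. Bub1, Mcm10, Birc5, Ccne2 and Cdc6 had means of 7 to 8, and the others that rose had means over 8. By role, in the deposited values, 3 of 6 G1 and E2F genes rose, 6 of 14 licensing and fork genes, 1 of 3 nucleotide genes, 3 of 10 S to M genes and 3 of 10 spindle genes.

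Bub1 read 8.12, 7.96, 7.53 and 6.41 on activated sAg1 arrays, against 4.82, 4.92 and 6.47 on dormant sAg1 arrays. Its difference was 2.10 (SE 0.59, limma adjusted p = 0.00183), although activated replicate 4 was just below dormant replicate 3. Mcm5 read 10.23, 10.25, 10.10 and 9.62 on activated arrays, against 8.09, 8.19 and 8.39 on dormant arrays, and the groups were apart. Its difference was 1.83 (SE 0.47, limma adjusted p = 0.000753). Mcm10 read 8.45, 8.54, 8.07 and 7.52 on activated arrays, against 6.38, 6.39 and 6.58 on dormant arrays, with a difference of 1.70. Ccne1 read 8.71, 8.66, 8.36 and 7.85 on activated arrays, against 7.09, 6.89 and 6.76 on dormant arrays, with a difference of 1.48 (SE 0.31, limma adjusted p = 6.15e-05). All activated arrays were above all dormant ones in both genes. Ccna2 read 8.94, 8.80, 8.39 and 7.11 on activated arrays, against 6.23, 6.25 and 7.46 on dormant arrays, with a difference of 1.66 and some overlap. Further genes called higher were Mcm7 (1.51), E2f8, an E2F family repressor (1.47), Rrm2 (1.37), Ccne2 (1.34), Birc5, the gene of survivin (1.34), Cdc45, a helicase cofactor (1.34), Kif23 (1.30), Gins1 (1.27), Cdk1, the mitotic kinase (1.23), Kif11 (1.17) and Cdc6, a licensing factor (1.06). The count was 12 to 23 when single arrays were left out. Single markers of other cell types differed between states in this clone, not all in the same direction. Lyz2, of macrophages, had a mean of 6.16 on activated and 9.26 on dormant sAg1 arrays. Itgax had 8.65 on activated and 7.50 on dormant arrays, and the B cell gene Ebf1 9.38 and 7.96. Medians of their lists differed less. The macrophage and dendritic cell list had a mean of 6.10 on activated and 5.79 on dormant sAg1 arrays, and the B cell list 6.26 and 5.55. The part of these markers in the result was not tested.

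In sAg3 few genes were called. Here 2 fell, Prc1 by 1.13 (limma adjusted p = 0.000797) and Top2a by 1.07 (limma adjusted p = 0.0485), against 0.940% of all probe sets, and 0 rose, against 4.08% (limma; 5 of 43 had an unadjusted p under 0.05). After centring 8 fell, against 3.75%, and 0 rose, against 0.649%. Cdk1 read 8.76, 8.60, 8.47 and 8.46 on activated sAg3 arrays, against 8.83, 8.15 and 7.97 on dormant ones, and overlapped. Cdc6 read 7.39, 7.14, 7.16 and 7.18 on activated arrays, against 7.33, 6.96 and 6.86 on dormant arrays, and overlapped too. Dormant sAg3 replicate 1 was the highest dormant array of the clone in most of the genes given by array here. Without it, and likewise without activated sAg3 replicate 2, 3 or 4, only 1 gene was called. Itgax, listed with the macrophage and dendritic cell markers, had its highest means in this clone, 11.37 on activated and 11.20 on dormant arrays. The median of that list was far lower, with a mean of 6.31 on activated and 5.67 on dormant sAg3 arrays. Adgre1 of the same list had means of 5.35 and 4.59. The part of Itgax in the result was not tested.

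In CD8bm1 29 genes fell, against 2.67% of all probe sets, and 0 rose, against 4.58% (limma; 34 of 43 had an unadjusted p under 0.05). After centring 36 fell, against 6.94%, and 0 rose, against 0.948%. All 10 S to M genes and all 10 spindle genes were called, with 5 of 14 licensing and fork genes, 2 of 3 nucleotide genes and 2 of 6 G1 and E2F genes. Bub1 read 7.65, 7.81, 9.29 and 8.17 on activated CD8bm1 arrays, against 8.84, 10.32, 9.75 and 10.82 on dormant CD8bm1 arrays, with a difference of -1.70 (SE 0.55, limma adjusted p = 0.00561). Nek2 read 6.92, 6.78, 8.01 and 6.98 on activated arrays, against 8.67, 9.82, 9.26 and 10.39 on dormant arrays, with a difference of -2.36. The Nek2 groups were apart, while activated replicate 3 put Bub1 within the dormant range. Tyms, which makes thymidylate, read 7.51, 7.41, 8.20 and 7.64 on activated arrays, against 8.29, 9.02, 8.04 and 9.69 on dormant arrays, with a difference of -1.07. Mcm5 read 9.62, 9.41, 10.16 and 9.68 on activated arrays, against 9.46, 10.35, 9.65 and 10.93 on dormant arrays. The Mcm5 groups overlapped and it was not called, with a difference of -0.38.

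In 8uvmo-3 10 genes fell, against 3.86% of all probe sets, and 0 rose, against 6.20% (limma; 17 of 43 had an unadjusted p under 0.05). After centring 18 fell, against 8.15%, and 0 rose, against 1.96%. The 10 were Prc1 (-3.05), Pola1, Ccnb2 (-1.70), Cenpf (-1.64), Ccna2 (-1.51), Kif11 (-1.45), Aspm (-1.25), Birc5 (-1.23), Mki67 (-1.21) and Nek2 (-1.06). Mcm5 read 10.10, 9.90, 10.23 and 9.75 on activated 8uvmo-3 arrays, against 9.60, 9.40, 9.09 and 9.08 on dormant ones, apart and higher, with a difference of 0.70 that was not called.

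In 8uvmo-2 the outcome depended on which dormant arrays were used. With all 4, 22 genes fell, against 4.87% of all probe sets, and 0 rose, against 7.0% (limma; 26 of 43 had an unadjusted p under 0.05). After centring 30 fell, against 9.20%, and 0 rose, against 2.50%. The largest were Prc1 (-3.21), Cenpf (-2.92), Ccnb2 (-2.89) and Aspm (-2.62). Against dormant replicates 1 and 3 alone, 37 genes were lower past the same threshold, against 5.24% of all probe sets, and 0 higher, against 7.74%. Against dormant replicates 2 and 4 alone, 8 were lower, against 4.69% of all probe sets, and 5 were higher, against 7.24%. The 8 were Prc1 (-3.01), Cenpf (-1.88), Ccnb2 (-1.84), Aspm (-1.59), Nek2 (-1.18), Ccnd3 (-1.17), Ccna2 (-1.08) and Mki67 (-1.003). The 5 were licensing and fork genes: Mcm5 (2.05), Cdc45 (1.41), Mcm10 (1.29), Mcm2 (1.26) and Mcm3 (1.14). These counts over pairs of arrays are descriptions, since the pairs were told apart by their values.

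Mcm5 shows the dependence by array. On activated 8uvmo-2 arrays it read 9.57, 9.17, 10.27 and 9.52, which lay below dormant replicates 1 and 3 and above dormant replicates 2 and 4, whose values are given above. Ccnb2 read 8.01, 7.59, 8.15 and 8.07 on activated arrays, against 11.90 and 11.88 on dormant replicates 1 and 3 and 10.05 and 9.55 on dormant replicates 2 and 4. It was thus lower than either pair. Rrm2 read 9.78, 8.67, 10.03 and 9.33 on activated arrays, below replicates 1 and 3 and around replicates 2 and 4.

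The difference between clones was tested as the activation effect of sAg1 minus the mean effect of the other 4 clones. This contrast was set with the behaviour of sAg1 in these data already known. By it, 30 of the 43 genes were higher, against 2.14% of all probe sets, and 0 lower, against 1.20% (limma; 37 of 43 had an unadjusted p under 0.05). The median was 1.58. The count was 30 after centring, 31 after quantile normalization and 23 to 33 with single arrays left out, but 0 when each clone entered as its mean. It was 27 without dormant 8uvmo-2 replicates 1 and 3, against 2.10% of all probe sets, and 35 without replicates 2 and 4, against 2.44%. The 30 covered 10 of 10 S to M genes, 8 of 10 spindle genes, 7 of 14 licensing and fork genes, 2 of 3 nucleotide genes and 3 of 6 G1 and E2F genes. The largest were Ccna2 at 3.36 (SE 0.59, limma adjusted p = 4.2e-05), Bub1 at 3.33 (SE 0.66, limma adjusted p = 0.000191), Ccnb2 at 2.93 (limma adjusted p = 2.93e-05) and Birc5 at 2.78 (limma adjusted p = 0.000114). At the other end were Prc1 at 0.04 (SE 0.32, limma adjusted p = 0.956) and Ccnd3 at 0.06 (SE 0.10, limma adjusted p = 0.751). Over the clones taken 1 by 1, 8 genes were called higher in sAg1 and lower in at least 1 other clone: E2f8, Gins1, Ccna2, Cdk1, Bub1, Kif11, Kif23 and Birc5. The share of all probe sets called in such opposite directions is not given here, so this count is a description.

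Between kinds of clone, the cell cycle genes differed in the dormant state. In dormant IL13+ clones 21 genes were lower than in dormant IL13-negative clones, against 3.08% of all probe sets, and 0 were higher, against 1.52% (limma; 37 of 43 had an unadjusted p under 0.05). The median difference was -0.99. Of the 21, 9 were S to M genes and 9 were spindle genes. Ccna2 read 6.23, 6.25 and 7.46 in dormant sAg1 and 9.81, 8.50 and 8.75 in dormant sAg3, against 12.10, 10.06, 12.17 and 9.21 in dormant 8uvmo-2 and 10.26, 9.56, 9.35 and 9.32 in dormant 8uvmo-3. The sAg1 arrays lay below all IL13-negative arrays and sAg3 replicate 1 did not. Its difference was -2.42 (SE 0.38, limma adjusted p = 2.26e-06), followed by Aspm at -2.28, Cenpf at -2.05 and Ccnb2 at -2.03. Ccnd2 differed most in the other direction, by 0.55.

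How many genes differed rested on single clones and arrays. The count was 11 without dormant 8uvmo-2 replicates 1 and 3, against 2.88% of all probe sets, and 35 without replicates 2 and 4, against 3.46%. The count was 12 without 8uvmo-2 and 13 without sAg1, for which the shares are not given here. It was 0 when each clone entered as 1 mean, a fit with 2 clones a side. The 10 genes lower in the reported fit and without each of these sets of arrays were Ccna2, Ccnb2, Nek2, Top2a, Kif11, Kif23, Cenpf, Ndc80, Aspm and Birc5.

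Dormant IL13+ clones were also below the dormant alloreactive clone. Here 31 genes were lower, against 4.36% of all probe sets, and 0 higher, against 3.42% (limma; 39 of 43 had an unadjusted p under 0.05). The count was 14 by limma's treat test against a difference of 1 and 0 over clone means. The largest differences were in Bub1 (-3.64, SE 0.50, limma adjusted p = 1.82e-07), Ccna2 (-3.44), Ccnb2 (-3.06) and Nek2 (-2.99). All 10 S to M genes were among them, with 9 of 10 spindle genes, 8 of 14 licensing and fork genes, 1 of 3 nucleotide genes and 3 of 6 G1 and E2F genes. Dormant IL13-negative clones had 6 genes lower than the dormant alloreactive clone, against 3.43% of all probe sets, and 0 higher, against 4.25%. The 6 were the S to M genes Bub1 (-1.66), Aurka (-1.27), Plk1 (-1.21), Nek2 (-1.05), Ccnb2 (-1.03) and Bub1b (-1.02). That count was 31 without dormant 8uvmo-2 replicates 1 and 3, against 4.07% of all probe sets. Without replicates 2 and 4 it was 0 lower, against 3.23%, and 1 higher (Pola1, 1.12), against 4.07%. A single gene higher cannot be told from that share. Left out singly, dormant 8uvmo-2 replicates 1, 2, 3 and 4 gave 18, 3, 19 and 2, dormant CD8bm1 replicates 1, 2, 3 and 4 gave 16, 2, 15 and 2, and dormant 8uvmo-3 replicate 1 gave 10. The 2 comparisons of IL13+ clones and the 2 with the alloreactive clone share arrays.

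After activation few such differences were detected. Activated IL13+ against activated IL13-negative clones gave 0 genes higher, against 1.06% of all probe sets, and 0 lower, against 1.58% (limma; 4 of 43 had an unadjusted p under 0.05). The differences ran from -0.61 in Kif23, a kinesin of the central spindle, to 0.82 in Rrm2, with a median of -0.03. Rrm2 read 10.26, 10.17, 9.71 and 9.06 in activated sAg1 and 10.92, 10.44, 10.19 and 10.33 in activated sAg3, against 9.78, 8.67, 10.03 and 9.33 in activated 8uvmo-2 and 8.98, 9.15, 9.59 and 9.0 in activated 8uvmo-3. The sAg3 arrays lay above all IL13-negative arrays, and 2 of the sAg1 arrays did not. Without sAg1, Rrm2 (1.15) and Prc1 (1.05) were called higher.

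Activated IL13+ clones against the activated alloreactive clone also gave 0 higher, against 2.23% of all probe sets, and 0 lower, against 1.78% (limma; 9 of 43 had an unadjusted p under 0.05). The largest difference was that of Bub1, at -1.10 (SE 0.48, limma adjusted p = 0.0837). Activated IL13-negative clones had 1 gene lower than the activated alloreactive clone, against 2.16% of all probe sets, and 0 higher, against 2.73%. It was Bub1, which read 6.98, 6.27, 7.32 and 6.76 in activated 8uvmo-2 and 6.75, 6.85, 7.25 and 6.85 in activated 8uvmo-3, against 7.65, 7.81, 9.29 and 8.17 in activated CD8bm1. All IL13-negative arrays were below all CD8bm1 arrays, and the difference was -1.35 (SE 0.48, limma adjusted p = 0.0255). The call was lost without activated CD8bm1 replicate 3. Whether the kinds of clone differed more in the dormant than in the activated state was not tested.

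Across the 38 arrays most of the genes moved together. Pearson correlations with the median of the 43 genes are given as a description over arrays that share clones and states. The highest was that of Aurkb, the kinase of the chromosomal passenger complex, at 0.986, and the lowest were those of E2f1 (0.532), Prc1 (0.487), Ccnd3 (0.313) and Ccnd2 (-0.200). Aurkb read 8.96, 8.99, 8.64 and 7.88 on activated sAg1 arrays, against 7.54, 7.37 and 7.99 on dormant ones. It read 8.51, 8.15, 9.40 and 8.60 on activated CD8bm1 arrays, against 9.67, 10.80, 10.32 and 11.29 on dormant ones, so the 2 clones ran in opposite directions. Outside the 43, the genes most like their median were Foxm1 (0.987), Kif2c (0.983), Pclaf (0.982), Fancd2, Stil and Dlgap5 (0.980 each), and Ckap2l and Kif18b (0.979 each). The least like were Mir346 (-0.764), Hs3st3b1 (-0.781) and Aff4 (-0.840).

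Other genes of the pathway were counted in the same fit. For mean activation, 1.95% of all probe sets were called lower and 4.68% higher. Of 9 inhibitors and pocket proteins 2 fell on average with activation. Cdkn1b, which encodes the kinase inhibitor p27, differed by -1.38 (SE 0.07, limma adjusted p = 8.52e-19), and Rb1, which encodes the retinoblastoma protein, by -1.21 (SE 0.04, limma adjusted p = 1.77e-23). Cdkn1b ranged from 9.59 to 9.75 in activated sAg1, against 11.26 to 11.46 in dormant sAg1, and from 8.75 to 9.38 in activated 8uvmo-3, against 10.79 to 11.13 in dormant 8uvmo-3. Cdkn1b thus fell in a clone where replication genes rose and in one where mitotic genes fell. These values are from its brighter probe set, and those of a dimmer one (mean 7.47) are not given here. Of 36 other mitotic genes 8 fell and 0 rose, led by Ttk, a checkpoint kinase gene (-1.51), and Nusap1 (-1.35). Without dormant 8uvmo-2 replicates 1 and 3 it was 2 of the 36 that fell, against 1.94% of all probe sets. Of 29 other replication genes 0 were called (limma; 15 had an unadjusted p under 0.05). Among 9 genes of kinases and other G1 factors only Myc rose (1.02), and among 12 quiescence genes Foxp1 rose (1.04) and Ccng2 fell by 1.21. These are single genes of short lists, and such counts cannot be told from the shares of all probe sets. The calls of Myc and Foxp1 were lost after centring, while after quantile normalization 1 gene of each of their lists was called higher.

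The same lists were counted in single clones. In sAg1, 15 of 36 other mitotic genes and 6 of 29 other replication genes rose with activation, against 7.22% of all probe sets. After centring 3 and 1 rose, against 2.27%, which for the replication genes is near that background. In CD8bm1, 27 and 7 fell, against 2.67%. By the difference of sAg1 from the other 4 clones, 30 of 36 other mitotic genes and 8 of 29 other replication genes were higher, against 2.14%, and without dormant 8uvmo-2 replicates 1 and 3 it was 27 and 6, against 2.10%. Cdkn2a, the gene of the inhibitors p16 and p19Arf in mouse, ranged from 10.16 to 10.47 in activated sAg1, against 7.84 to 8.09 in dormant sAg1, and rose by 2.35 (SE 0.23, limma adjusted p = 1.14e-10). In sAg3 it was high in both states, at 10.90 to 11.02 on activated arrays and 10.63 to 10.79 on dormant arrays. In the dormant state 29 of 36 other mitotic genes were lower in IL13+ than in IL13-negative clones, against 3.08% of all probe sets, and without dormant 8uvmo-2 replicates 1 and 3 it was 13, against 2.88%, while Myc was 1.41 higher there and the D cyclin gene Ccnd1 differed by -1.40.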

How the data were processed

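RNA of 38 samples was measured on Affymetrix arrays, 1 array a sample. The deposited series table holds log2 values, 1 per probe set and array. Per the submitters' processing notes, RMA (robust multi-array averaging) and Partek were used, with no version or setting stated. Joint normalization of all arrays is not given in the sources used here. Precision is limited by the number of arrays, since there is no read depth. Of 35556 rows, 23410 carry a gene name and were tested, 1621 of them with several symbols, while 12146 rows have no gene name. A gene is represented by its brightest probe set with that symbol alone.

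Each probe set was fitted with limma 3.58.1 (R 4.3.3), with 1 mean per clone and state over all 38 arrays and moderated variances with a mean trend. Clones have equal weight in each of the comparisons, tests are two-sided, and errors of differences are standard errors. Calls need a Benjamini-Hochberg adjusted p under 0.05 and a log2 difference of at least 1. The procedure was also run on simulated data, but the outcome is not given here and no result rests on it. The member genes and all lists were chosen with earlier results of these data known. The genes described are the key genes of each role, and in each comparison the 4 largest differences and every call against the majority. Others named were chosen after their values were seen, including Mcm10, Mcm2, Cdc45 and the promoters shown.

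The replicate numbers state no pairing. Deviations from the group means of same-numbered activated and dormant arrays of a clone correlated at -0.236 to 0.268, and 7 of 18 pairs exceeded 0.1, among them all 4 pairs of 8uvmo-2 (0.113 to 0.237).

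Alternatives were centring, quantile normalization, other fold minimums, a filter on dim probe sets, all rows, no variance trend, array weights, only the arrays compared, the dimmest probe set of a gene, the replicate block, clone means, and leaving out arrays or clones.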

Additional observations from a re-analysis of the deposited data

Results flagged for a closer look

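Lone arrays were looked for in 192 groups of 4 values, 1 gene in 1 group each, and 5 were found, where chance gives about 1 in 20 groups. In dormant 8uvmo-3, E2f1 had replicate 4 at 7.39 with the others at 7.72 to 7.78. Cenpe had replicate 1 at 8.86 with the others at 7.79 to 7.86, and Birc5 had replicate 1 at 8.89 with the others at 8.03 to 8.14. Replicate 1 was also the highest dormant 8uvmo-3 array in other mitotic genes, as in Bub1 (8.40, others 7.48 to 7.72) and Nek2 (8.59, others 7.49 to 7.53). The Cenpe and Birc5 values are thus not separate from that array. In activated sAg3, Cdc6 had 1 array at 7.39 with the others at 7.14 to 7.18. In activated CD8bm1, Cdt1 had 1 at 8.56 with the others at 8.05 to 8.13.

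By the contrast of the activation effect of sAg1 with the mean of the other 4 clones, 30 genes were called higher, against 2.14% of all probe sets (limma). That contrast was set with the behaviour of sAg1 in these data already known, and all its calls were lost when each clone entered as its mean. Among the key genes, the difference of effects was 1.38 in Ccne1, 1.87 in Ccne2 and 2.19 in E2f8. For licensing and nucleotide genes it was 1.08 in Cdc6, 1.58 in Mcm5, 2.17 in Rrm2 and 1.23 in Tyms. For S to M genes it was 3.36 in Ccna2, 1.75 in Cdk1, 2.15 in Plk1, 2.16 in Aurkb, 1.28 in Cdc20 and 3.33 in Bub1. For chromosome and spindle genes it was 2.03 in Top2a, 2.14 in Cenpe, 2.78 in Birc5 and 2.75 in Kif11.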

How the results depend on the processing

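Array number, scaling and the choice of dormant arrays limited these counts, and the cause of each move below was not tested. Over 362 alternative counts, 284 stayed within 1.5 times the reported one in the same direction, and of 2723 alternatives for single genes 291 lost a call and 4 turned the sign. Those 4 were Top2a on its dimmest probe set: 1.06 for mean activation, 1.15 in sAg3, 0.50 in CD8bm1 and 0.93 in 8uvmo-2. For mean activation (9 lower) the count was 19 after centring, 14 after quantile normalization, 26 without a fold minimum, 1 by limma's treat test, 3 with array weights, 5 with the replicate block and 4 over clone means. It was 3 without 8uvmo-2, 17 without sAg1, 3 without dormant 8uvmo-2 replicates 1 and 3, and 14 without replicates 2 and 4. For sAg1 (16 higher) centring gave 6, and the treat test 0 higher and 1 lower. For sAg3 (2 lower) centring gave 8, no fold minimum 5, the treat test 0, and the filter on dim probe sets, all rows, no variance trend, array weights, the replicate block and the dimmest probe set 1 each. The treat test gave 3 in CD8bm1, 1 in 8uvmo-3 and 5 in 8uvmo-2, centring gave 18 in 8uvmo-3, and 8uvmo-2 had 8 lower without dormant replicates 1 and 3 and 37 without 2 and 4. With the replicate block, dormant IL13+ minus IL13-negative gave 22, and no other count than those named moved by over 1.5 times. For dormant IL13+ minus IL13-negative (21 lower) the count was 35 without a fold minimum, 3 by treat, 0 over clone means, 12 without 8uvmo-2, 13 without sAg1, 11 without dormant 8uvmo-2 replicates 1 and 3, and 35 without 2 and 4. For dormant IL13+ minus alloreactive (31) treat gave 14 and clone means 0. For dormant IL13-negative minus alloreactive (6) it was 16 without a fold minimum, 0 by treat, 21 with array weights, 2 over only the arrays compared, 0 over clone means, 20 without 8uvmo-2, 31 without dormant 8uvmo-2 replicates 1 and 3, and 0 lower with 1 higher without 2 and 4. For activated IL13+ minus alloreactive (0) quantile normalization, array weights, only the arrays compared and the dimmest probe set gave 1 each, no fold minimum 3 and leaving out sAg1 2. For activated IL13+ minus IL13-negative (0) no fold minimum gave 1 and leaving out sAg1 2. For activated IL13-negative minus alloreactive (1 lower) no fold minimum gave 1 lower and 3 higher, treat, clone means and leaving out 8uvmo-2 gave 0, and the dimmest probe set gave 2. For the effect of sAg1 minus the other 4 clones (30) treat gave 1 and clone means 0.

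With 1 array left out, counts ran from 4 to 10 for mean activation, 12 to 23 in sAg1, 1 to 2 in sAg3, 17 to 31 in 8uvmo-2, 8 to 12 in 8uvmo-3 and 21 to 31 in CD8bm1. They ran from 17 to 28 for dormant IL13+ minus IL13-negative, 26 to 34 for dormant IL13+ minus alloreactive, 2 to 19 for dormant IL13-negative minus alloreactive and 23 to 33 for sAg1 minus the other 4 clones. Of the activated comparisons, both with IL13+ clones stayed at 0, and IL13-negative minus alloreactive ran from 0 to 1. For mean activation the lowest count, 4, came without dormant sAg3 replicate 1, dormant 8uvmo-2 replicate 1 or dormant 8uvmo-2 replicate 3, and 5 came without activated sAg1 replicate 4. In sAg3, 1 came without dormant replicate 1 or activated replicate 2, 3 or 4. For dormant IL13-negative minus alloreactive, the arrays that moved the count are named in the report. For activated IL13-negative minus alloreactive, 0 came without activated CD8bm1 replicate 3.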
